A study of Mus musculus with 2 samples.

Results

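The genes described here are 42 splicing factor genes, all the names that start with Srsf or Hnrnp in both libraries' files together with Tra2a, Tra2b, Sf3b1, U2af1, U2af2, Mbnl1, Mbnl2, Celf1, Celf2, Celf4, Srrm2 and Srrm4. They were chosen by symbol, by a rule that holds no values, from 16055 gene names that the files share. Earlier results of these data were known when they were chosen. They comprise 10 SR proteins, 4 SR-related proteins (Tra2a, Tra2b, Srrm2 and Srrm4), 3 factors that read the 3′ splice site (Sf3b1, U2af1 and U2af2), 20 hnRNP proteins and 5 MBNL and CELF proteins. A further 2 names, Srsf12 and Hnrnpa1l2-ps, were listed at P12 only, with 5 and 3 UMIs (unique molecular identifiers, the counted transcript molecules), and were left out.

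The series measured single medulloblastoma cells from hGFAPcre;Ptchc/c mice by Drop-seq, a droplet method that counts the 3′ ends of transcripts per cell. In these mice Cre is driven by a human GFAP promoter and acts on a conditional Ptch1 allele, so that Hedgehog signalling is active in neural progenitors. Both groups carry this genotype. A library of each age was analysed, 1 from postnatal day 12 (P12) and 1 from between days 24 and 30 (P24-30), and there are no wild-type cells. The sources used here do not give the number of animals.

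SR proteins bind exonic enhancers through RNA recognition motifs, and their arginine-serine tails recruit the spliceosome to nearby splice sites. HnRNP proteins coat nascent RNA and often act against SR proteins at silencer elements, and several also take part in RNA export and decay. In developing neurons, a switch in RNA-binding proteins changes the exons that are used: Srrm4 promotes the inclusion of neuronal microexons, while CELF and MBNL proteins act in opposite directions on many exons.

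Cells under 500 UMIs or over 20% mitochondrial UMIs were removed, which left 5723 P12 and 4796 P24-30 cells with medians of 1805 and 2193.5 UMIs. The P24-30 column names carry 16 tags, G1 to G16, which no label explains, and it is not known which genes the tags were made from. Tags G1 (353 cells) and G2 (892 cells) had raised proliferation markers and served as the cycling reference. Tags G11, G12 and G13 (124, 208 and 505 cells) had summed CPM (UMIs scaled to a total of 1000000) of the 10 neuron markers of 7424, 7556 and 6297, against 1915 and 1862 in G1 and G2. Tag G13 also held 2 choroid plexus markers, Ttr and Enpp2, and no neuron marker among its 10 leading genes, so the 3 tags are called by number, and values without G13 are given. P12 cells were clustered alone and with the 42 genes left out. Of 12 clusters, 4 were named cycling (2817 cells), 1 neuron-like (505 cells) and 1 microglia-like (81 cells, with all 12 microglia markers detected). Clusters 6 (455 cells) and 9 (101 cells) took no name under the naming rule, and the cycling reference leaves them out. Their 16 G2 and M markers summed to 11469 and 10251 CPM, above the 7976 CPM of cycling cluster 2, so the reference does not hold all proliferating cells. The P24-30 cell names hold no barcode, so barcodes shared between the libraries could not be counted. No doublets were removed.

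With 1 library per age there is no test and no p-value. Each ratio below is a ratio of CPM summed over cells, divided by that of the median gene kept in the same comparison, and is called higher or lower when it lies past 1.5-fold. Its bracketed range is an exact 95% interval that covers counting error only. Beside the first count of each comparison stands the share of all kept genes that was called in that direction. Counts under other settings carry no such share, apart from those over both libraries, and the main shares do not apply to them.

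For the promoters, RefSeq windows of 250 bases before to 50 bases after the gene start (GRCm38.p6) were matched to 38 of the 42 genes. The 4 sequences printed belong to genes whose values are described in full below: Srsf3, Srsf7 and Hnrnpd, which were lower in the neuron-like contrasts of both libraries, and Srrm4, which was higher in both. They show the 250 bases before the start, 5′ to 3′ on the gene's strand. Capitals mark 3 motifs on either strand: the TATA box as TATAAA, the CCAAT box by its 5 letters, and the GC box as GGGCGG.
Srsf3, chr17:29032410-29032659, plus strand: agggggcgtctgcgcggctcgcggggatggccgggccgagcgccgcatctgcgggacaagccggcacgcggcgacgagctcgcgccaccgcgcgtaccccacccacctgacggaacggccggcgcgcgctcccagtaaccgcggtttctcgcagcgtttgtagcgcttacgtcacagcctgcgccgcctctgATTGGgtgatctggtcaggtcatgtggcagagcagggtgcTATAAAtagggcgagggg
Srsf7, chr17:80207306-80207555, minus strand: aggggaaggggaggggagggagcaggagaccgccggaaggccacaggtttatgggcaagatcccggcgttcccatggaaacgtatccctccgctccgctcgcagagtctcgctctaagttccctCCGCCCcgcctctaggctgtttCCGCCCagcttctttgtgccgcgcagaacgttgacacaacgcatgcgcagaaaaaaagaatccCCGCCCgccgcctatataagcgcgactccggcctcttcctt
Hnrnpd, chr5:99978939-99979188, minus strand: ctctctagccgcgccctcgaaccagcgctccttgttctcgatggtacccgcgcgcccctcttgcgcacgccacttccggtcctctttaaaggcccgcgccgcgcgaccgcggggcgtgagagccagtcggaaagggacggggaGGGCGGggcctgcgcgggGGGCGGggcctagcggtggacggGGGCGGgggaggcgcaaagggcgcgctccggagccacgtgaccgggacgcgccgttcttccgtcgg
Srrm4, chr5:116591818-116592067, minus strand: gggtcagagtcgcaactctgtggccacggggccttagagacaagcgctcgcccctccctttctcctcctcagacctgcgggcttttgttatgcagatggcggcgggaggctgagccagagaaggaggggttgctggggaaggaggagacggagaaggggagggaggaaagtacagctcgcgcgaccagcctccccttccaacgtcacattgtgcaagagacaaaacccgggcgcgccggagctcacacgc
The Srsf3 window held 1 TATAAA and 1 CCAAT match, those of Srsf7 and Hnrnpd held 3 GGGCGG matches each, and the Srrm4 window held none of the 3 motifs. Their GC content was 69.6%, 61.6%, 74.4% and 63.2%. Over the 300-base windows, GGGCGG or its reverse complement was found in 28 of 38 (73.7%), against 67.3% of 7384 genes kept in the P24-30 comparison and 35.9% of 27025 promoters. CCAAT was found in 20 (52.6%), against 40.0% and 37.9%. TATAAA was found in 6 (15.8%), against 6.23% and 14.2%. The median GC content was 63.7% in the 38 windows and 61.7% in those of the kept genes.

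In the P24-30 library most splicing factor genes were lower in tags G11 to G13 than in tags G1 and G2. Of 42 genes, all of which passed the minimum of 10 expected UMIs, 22 were lower (20% of 10116 kept genes were) and 3 were higher (23.8% of kept genes). The 3 were Celf2, Celf4 and Srrm4. In either direction this makes 25 genes called, where 43.8% of kept genes were. The median ratio was 0.650, a log2 value of -0.62, and 37 of 42 genes lay below the median gene. Summed over the 42 genes, the level was 14517 CPM in G11 to G13 and 18927 CPM in G1 and G2. Without tag G13, 17 genes were lower and 3 higher, with a median log2 ratio of -0.48. Without division by the median gene (which itself had a log2 ratio of 0.25), 14 were lower and 4 higher, with a median of -0.38. With every gene of 1 UMI or more kept, the median gene had a log2 ratio of 0.55, and 33 of the 42 genes were lower and 0 higher. A group at 0 UMIs is set to 3 counts under this setting, which shifts the median gene by construction. Celf4 was then at 1.48, Srrm4 at 1.38 and Celf2 at 1.24, inside 1.5-fold.

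Of the 10 SR proteins, 7 were lower (20% of kept genes) and 0 higher (23.8%). Srsf3, which also serves as an adaptor for mRNA export, stood at 897.7 CPM in G1 and 1020 CPM in G2, and at 474.4, 514.3 and 581.1 CPM in G11, G12 and G13. The 2 sets of tags did not overlap, and the ratio was 0.475 (0.440 to 0.512). Srsf7, a close relative of Srsf3, stood at 219.2 and 226.2 CPM in G1 and G2 and at 88.63, 91.30 and 123.7 CPM in G11 to G13, a ratio of 0.422 (0.356 to 0.498). Srsf2, a component of nuclear speckles, stood at 731.7 and 788.3 CPM against 344.1, 490.0 and 416.2 CPM, a ratio of 0.463 (0.425 to 0.504). The annotation places 2 genes, Mettl23 and Mfsd11, on the strand opposite Srsf2, and the sources used here do not say whether the counting used strand. Srsf5 was the SR protein gene that lay above the median gene. Its level was 267.5 and 282.5 CPM in G1 and G2 and 427.5, 383.4 and 365.9 CPM in G11 to G13, again without overlap, but its ratio of 1.15 (1.03 to 1.27) stayed inside 1.5-fold.

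All 20 hnRNP genes lay below the median gene, and 11 were called lower (20% of kept genes). Hnrnpd (AUF1), which binds AU-rich elements of unstable mRNAs, had the lowest ratio of the 42 genes. It stood at 583.4 and 685.6 CPM in G1 and G2 and at 307.6, 289.1 and 298.6 CPM in G11 to G13, a ratio of 0.384 (0.347 to 0.425). Hnrnpa2b1, which had the most UMIs of the 42 genes, stood at 2885 and 2621 CPM against 1684, 1719 and 1728 CPM, a ratio of 0.537 (0.514 to 0.560). Hnrnpf, which binds G-runs, had a ratio of 0.428 (0.365 to 0.50), Hnrnpul1 one of 0.424 (0.325 to 0.547) and Hnrnpab one of 0.474 (0.440 to 0.510). Hnrnpa3 was lower too, at 0.463 (0.424 to 0.504), whereas Hnrnpa1, the silencer-binding hnRNP, had a ratio of 0.805 (0.740 to 0.875) and was not called.

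The SR-related genes and the MBNL and CELF genes were split. Srrm4, the activator of neuronal microexons, stood at 88.64 and 72.73 CPM in G1 and G2 and at 151.2, 155.2 and 158.8 CPM in G11 to G13, a ratio of 1.71 (1.43 to 2.03). Tra2b, which binds GAA-rich exonic enhancers, had a ratio of 0.507 (0.448 to 0.572). Srrm2, a scaffold of nuclear speckles, had a ratio of 0.953 (0.890 to 1.02). Celf4, a CELF protein mostly found in neurons, stood at 168.4 and 127.5 CPM against 354.5, 340.8 and 283.5 CPM, and had the highest ratio of the 42 genes, 1.83 (1.62 to 2.08). Celf2 stood at 402.9 and 363.6 CPM against 766.4, 751.7 and 643.4 CPM, a ratio of 1.53 (1.41 to 1.66) whose interval reaches inside 1.5-fold. Within the MBNL pair, the proteins that CUG repeats sequester in myotonic dystrophy, the ratio was 0.626 (0.451 to 0.856) for Mbnl1 and 1.44 (1.13 to 1.83) for Mbnl2. Celf1, the broadly expressed CELF protein, had a ratio of 0.882 (0.770 to 1.01).

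In CPM, the 3 tags G11 to G13 all lay below both G1 and G2 for 27 of the 42 genes (17.4% of kept genes did so). They all lay above both for 6 (32.5% of kept genes): Celf2, Celf4, Mbnl2, Srrm2, Srrm4 and Srsf5. Beside these values stand differences of depth and quality between the tags. The median was 2851 UMIs per cell in G1 and G2 and 1629 in G11 to G13. The mitochondrial share was 2.72% and 4.27%, and Malat1, a nuclear RNA, stood at 5194 and 9382 CPM. The 5 choroid plexus markers summed to 422.3, 298.2 and 17402 CPM in G11, G12 and G13, against 90.26 and 93.19 CPM in G1 and G2, where 2 of the 5 were at 0. Of 505 G13 cells, 5 had 3 or more of these markers. Without the cells that hold these markers, 21 genes were lower and 3 higher, with a median log2 ratio of -0.59. Without the 5% of cells with the most UMIs, 20 were lower and 3 higher, with a median of -0.57. With each cell given equal weight, 24 were lower and 3 higher, with a median of -0.61. The part of the mitochondrial share and of Malat1 in the result was not tested.

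**Figure D1:**
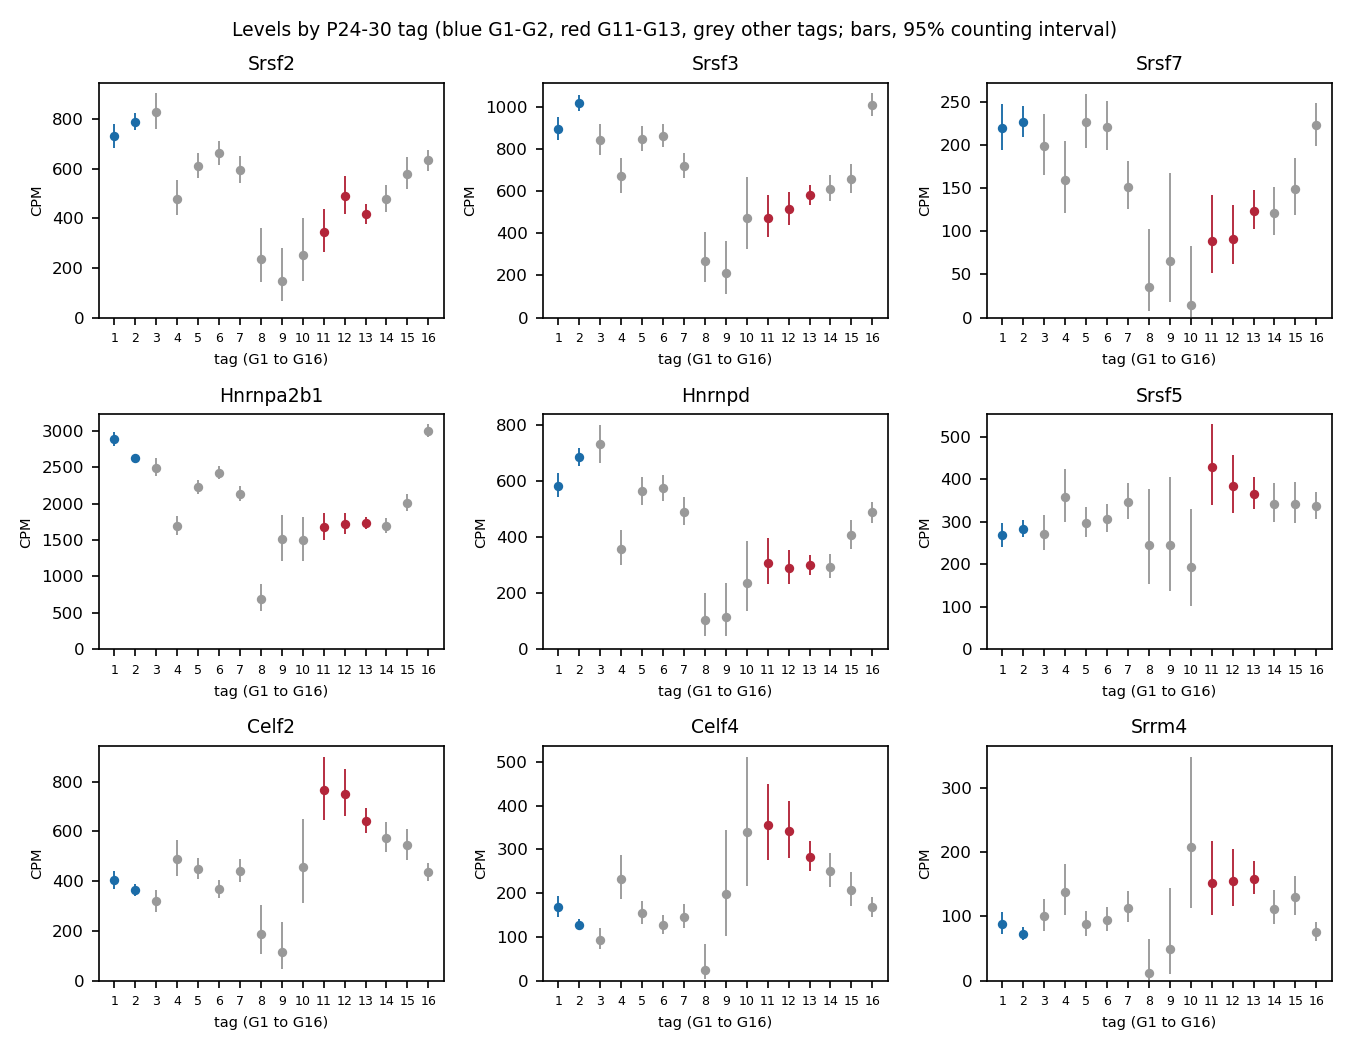
Levels of 9 splicing factor genes in the P24-30 library, as CPM on the y axis against tag on the x axis. Points are values of 1 tag, bars exact 95% counting intervals. Srsf2, Srsf3, Srsf7, Hnrnpa2b1 and Hnrnpd lie lower in the red tags G11 to G13 than in the blue tags G1 and G2, and Srsf5, Celf2, Celf4 and Srrm4 lie higher.

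Over the 14 tags with at least 50 cells, the levels varied by 1.29-fold (Srsf11) to 15.3-fold (Srsf7) between the lowest and the highest tag. In plain CPM, tag G10 was the lowest for 26 of the 42 genes. Against the library's other cells, the median gene in G10 itself had a log2 ratio of -0.62. Relative to it, 6 of 27 kept splicing factor genes were higher (32.8% of all kept genes) and 3 lower (30.3%), with a median of -0.08. Tag G10 holds 77 cells with a median of 774.00 UMIs and 67576 UMIs in all, so that the lowest Srsf7 level, 14.80 CPM, rests on 1 UMI. The highest level fell in tag G3 for 8 genes, in G16 for 8, in G2 for 7 and in G1 for 5, all tags with raised proliferation markers. These counts of lowest and highest tags have no share over all genes beside them. Srsf3 ranged from 473.5 CPM (G10) over a median of 695.5 CPM to 1020 CPM (G2). Hnrnpa2b1 ranged from 1495 CPM (G10) over 2074 CPM to 3004 CPM (G16). Celf4 had another order, from 93.71 CPM in G3 over a median of 187.5 CPM to 354.5 CPM in G11. Neighbouring tags often lay within each other's counting intervals, as G11, G12 and G13 did for Hnrnpd and for Srrm4.

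**Figure D2:**
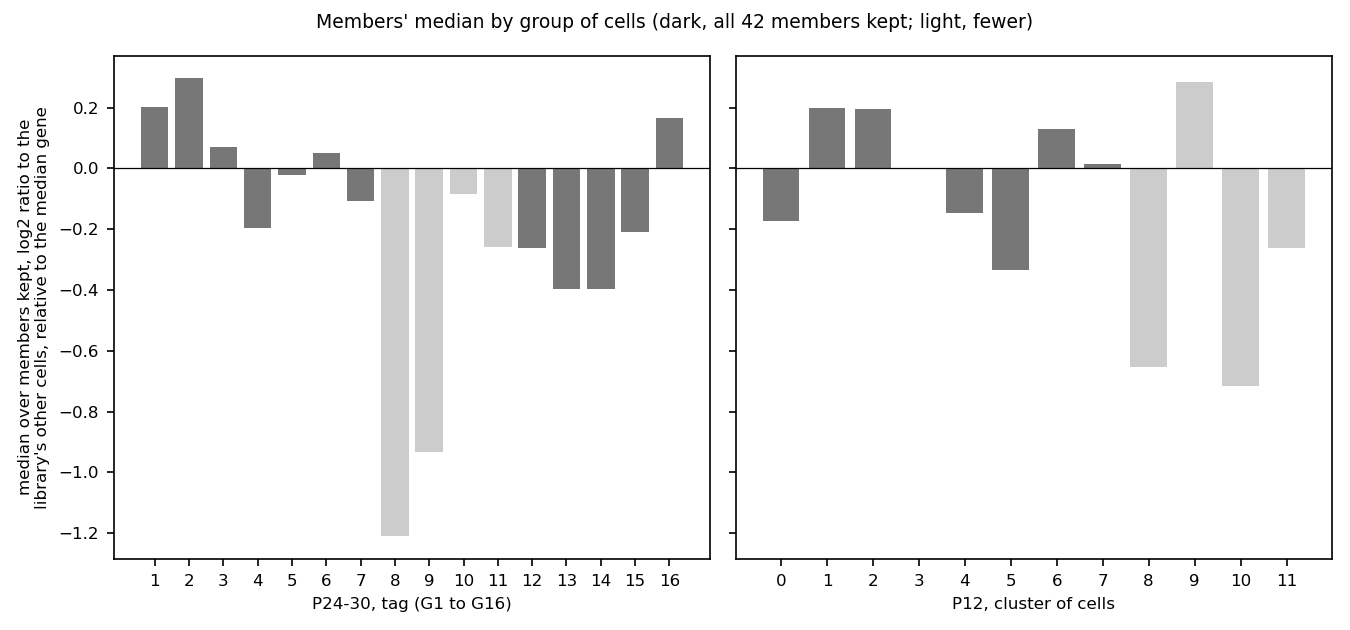
Median log2 ratio of the splicing factor genes kept in each group of cells against the rest of its library, relative to the median gene, for 16 P24-30 tags (left) and 12 P12 clusters (right). Dark bars rest on all 42 genes and light bars on fewer. The median was 0.30 in tag G2, -0.40 in tag G13 and -0.33 in P12 cluster 5 (neuron-like).

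Against the other cells of its library, each tag gave a median of its own. The medians over all 42 genes were 0.20 in tag G1, 0.30 in G2 and 0.17 in G16, and -0.26, -0.40 and -0.40 in G12, G13 and G14. Tag G11, with 40 genes kept, had -0.26. In tag G14, 9 of the 42 genes were lower (13.2% of its kept genes) and 1 was higher (12.8%). At P12, cluster 1, named for G2 and M, and cluster 2, named for S phase, had medians of 0.20 each. The neuron-like cluster 5 had -0.33, with 11 genes lower (22.1%) and 3 higher (21.4%). The oligodendrocyte lineage cluster 8 (106 cells, 41 genes kept) had a median of -0.66, with 22 genes lower (23.5%) and 1 higher (24.3%). These groups share the remainder of their library and are not independent of each other.

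At P12 a contrast of neuron-like with cycling cells was made in cells that share no library with the tags, and most of the splicing factor genes were again on the lower side. Of the 42 genes, all kept, 16 were lower in neuron-like than in cycling cells (22.9% of 8520 kept genes) and 4 were higher (23.2%), namely Celf2, Celf4, Mbnl2 and Srrm4, which makes 20 called in either direction (46.1%). The median ratio was 0.743, a log2 value of -0.43, and 33 genes lay below the median gene. The summed level was 19930 CPM in neuron-like cells and 23765 CPM in cycling cells. Median depth was 1438 and 2086 UMIs, the mitochondrial share 8.23% and 7.42%, and Malat1 stood at 24061 and 13712 CPM, and the part of these differences in the result was not tested. The 10 neuron markers summed to 10340 CPM in neuron-like cells and 1906 CPM in cycling cells, and the 16 G2 and M markers to 547.1 and 12792 CPM.

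Of the SR proteins 6 of 10 were lower at P12 (22.9% of kept genes), and all 10 lay below the median gene. Srsf3 stood at 1063, 1073, 935.7 and 1094 CPM in the 4 cycling clusters and at 606.5 CPM in the neuron-like cluster, a ratio of 0.566 (0.516 to 0.621). Srsf7 stood at 345.9, 344.7, 329.9 and 322.2 CPM in the cycling clusters and at 130.0 CPM in the neuron-like cluster, a ratio of 0.374 (0.304 to 0.454). For both genes the neuron-like value was below each cycling cluster. Srsf2 had a ratio of 0.541 (0.477 to 0.612), Srsf10 one of 0.523 (0.433 to 0.626) and Tra2b one of 0.603 (0.504 to 0.717). Of the factors at the 3′ splice site, U2af1, the small U2AF subunit that contacts the terminal AG, was lower at 0.484 (0.332 to 0.684).

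Of the hnRNP genes 7 of 20 were lower (22.9% of kept genes). Hnrnpf had the lowest ratio of the 42 genes, 0.292 (0.184 to 0.443), and rested on 23 UMIs in neuron-like cells. Hnrnpd stood at 784.7, 1057, 937.2 and 758.3 CPM in the cycling clusters and at 464.1 CPM in the neuron-like cluster, a ratio of 0.509 (0.457 to 0.565). Hnrnpab had a ratio of 0.659 (0.609 to 0.712). Hnrnpa2b1, at 2958 against 4108 CPM, had a ratio of 0.702 (0.673 to 0.732) and was not called. Hnrnph3 had the highest ratio of the family, 1.08 (0.967 to 1.20), and Hnrnpa1 one of 1.05 (0.710 to 1.5) on 34 UMIs.

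The genes that were higher in neuron-like cells at P12 were the same 3 as in the tags, with Mbnl2 added. Celf4 stood at 97.89, 99.25, 61.17 and 46.68 CPM in the 4 cycling clusters and at 493.8 CPM in the neuron-like cluster, a ratio of 5.73 (5.03 to 6.52). Srrm4 stood at 94.38, 91.86, 54.61 and 60.34 CPM against 305.7 CPM, a ratio of 3.68 (3.15 to 4.28). Celf2 stood at 653.6, 588.1, 489.3 and 511.2 CPM against 1540 CPM, a ratio of 2.58 (2.41 to 2.75). In each of these genes the neuron-like value lay above every cycling cluster. Mbnl2 had a ratio of 1.53 (1.18 to 1.96), whose interval reaches inside 1.5-fold. Its call ended without the filter on mitochondrial UMIs (1.47), with coarser clusters at Leiden resolution 0.5 (1.23), without cycling cluster 2 (1.49) and with every gene of 1 UMI or more kept (0.945). Mbnl1 had a ratio of 0.607 (0.436 to 0.825). Celf1 and Srrm2 lay near the median gene at 1.03 (0.906 to 1.18) and 1.01 (0.951 to 1.08).

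After thinning each cell to 500 UMIs, 23.0% (19.4 to 26.9%) of neuron-like and 3.76% (3.09 to 4.53%) of cycling P12 cells held a Celf4 UMI, against 48.7% and 15.8% before thinning. In microglia-like cells (median 2091 UMIs), which should lack this gene, the share was 4.94% (1.36 to 12.2%), on 4 of 81 cells. This wide interval includes the share of cycling cells, so it cannot show whether that share is background. The Celf4 ratio of 5.73 is therefore one over a level not told apart from background. For Srrm4 the thinned shares were 14.7% (11.7 to 18.0%) in neuron-like cells, 4.30% (3.58 to 5.11%) in cycling cells and 0 of 81 microglia-like cells (0 to 4.45%), a limit on cells with a UMI at 500 UMIs per cell that includes the share of cycling cells. Before thinning they were 35.8%, 15.7% and 2.47%. For Celf2 they were 54.3% (49.8 to 58.7%), 24.5% (22.9 to 26.1%) and 7.41% (2.77 to 15.4%), and 86.5%, 65.6% and 40.7% before thinning. At P24-30 the Celf4 share was 11.8% (9.72 to 14.2%) in tags G11 to G13 and 6.02% (4.77 to 7.49%) in G1 and G2, against 32% and 27.6% before thinning and 2.86% (0.0723 to 14.9%) in the 35 cells of the microglia-like tag G8 (median 2004.0 UMIs) after it. The G8 interval includes the shares of both sets of tags, so neither is told apart from background by it.

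Across both libraries, 15 of 42 genes (35.7%) were lower in both contrasts, against 14.2% of the 7678 genes kept in both. They make up 68.2% of the genes that were lower at P24-30 (68.7% over all genes kept in both) and 93.8% of those that were lower at P12 (62.6% over all genes). They are Hnrnpab, Hnrnpd, Hnrnpf, Hnrnpl, Hnrnpu, Hnrnpul1, Mbnl1, Srsf2, Srsf3, Srsf4, Srsf6, Srsf7, Srsf10, Tra2b and U2af1. Another 3 genes (7.14%) were higher in both, against 13.5% of kept genes, and 0 of the 42 were called in opposite directions, where 49 of the 7678 were. Without division by the median gene, 9 of the 42 were lower in both (21.4%, against 11% of the 7678): Hnrnpab, Hnrnpl, Hnrnpu, Mbnl1, Srsf4 and Srsf6 left the group. The higher ones were then 4 (9.52%, against 17.9%), with Mbnl2 added. With every gene of 1 UMI or more kept, 33 were lower in both (78.6%, against 22.2% of 14816 genes) and 0 higher (17.4%). Groups at 0 UMIs are set to 3 counts under this setting. This shifts the median gene, and with it these counts, by construction. The ratios of Celf4 and Srrm4 were 1.83 and 1.71 at P24-30 and 5.73 and 3.68 at P12. The cells were grouped in different ways in the 2 libraries, and the difference between them was not tested.

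**Figure D3:**
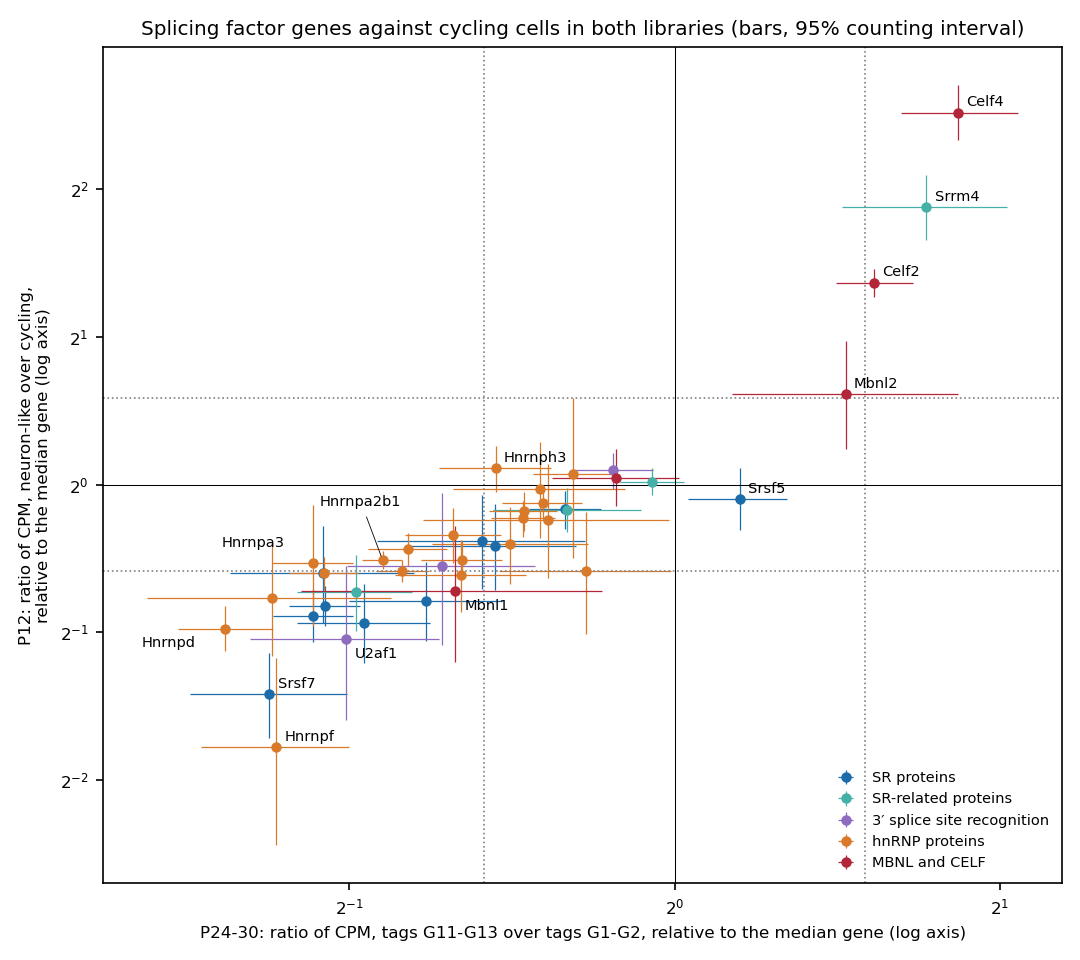
Ratio of each of the 42 splicing factor genes in the P24-30 library (x axis, tags G11 to G13 over G1 and G2) and in the P12 library (y axis, neuron-like over cycling), relative to the median gene, on log axes. Bars are 95% counting intervals and dotted lines mark 1.5-fold. The 15 genes lower in both libraries lie at lower left, and Celf2, Celf4 and Srrm4 lie at upper right.

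The P12 microglia-like cells had the lowest summed level of the 3 P12 classes compared, 9031 CPM against 23765 CPM in cycling cells. Of the 42 genes, 39 passed the minimum. Hnrnpa1, Srrm4 and U2af2 did not, with 1, 2 and 6 UMIs. The minimum uses the mean of both groups, so genes such as Hnrnph3 (8 UMIs) passed through their level in cycling cells. The counts of lower and higher genes depend on this. Of those 39 genes, 24 were lower (31.9% of 3910 kept genes) and 3 were higher (33.3%), 27 in either direction (65.2%), with a median log2 ratio of -0.83. The median gene itself had a log2 ratio of -0.49, and without division by it 30 genes were lower and 2 higher. No share over all kept genes stands beside these 2 counts, and the shares above do not apply to them. Hnrnph3, an hnRNP H relative, had the lowest ratio, 0.130 (0.0562 to 0.257), on 8 UMIs. Srsf7 followed at 0.203 (0.0974 to 0.375) on 10 UMIs and Hnrnpd at 0.310 (0.221 to 0.423) on 40 UMIs. Srsf3 stood at 270.3 against 1044 CPM, a ratio of 0.364 (0.274 to 0.474), and Hnrnpa2b1 at 1263 against 4108 CPM, a ratio of 0.432 (0.380 to 0.488). Hnrnpab had a ratio of 0.432 (0.342 to 0.539) and Tra2b one of 0.567 (0.358 to 0.853), while Srsf2, at 0.768 (0.595 to 0.976), was not called.

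The higher genes were Mbnl1, Mbnl2 and Srsf9. Mbnl1 stood at 83.85, 92.39, 89.57 and 84.25 CPM in the cycling clusters, at 54.46 CPM in the neuron-like cluster and at 260.4 CPM in the microglia-like cluster, a ratio of 4.18 (3.09 to 5.54). The thinned share of cells with an Mbnl1 UMI was 13.6% (6.98 to 23.0%) in microglia-like cells, 3.69% (3.03 to 4.46%) in cycling cells and 3.17% (1.82 to 5.09%) in neuron-like cells, and 44.4%, 17.7% and 7.92% before thinning. Mbnl2 had a ratio of 2.30 (1.39 to 3.61) on 20 UMIs, and Srsf9 one of 1.74 (1.21 to 2.42) on 36 UMIs. Celf2, which was higher in neuron-like cells, was lower here at 0.521 (0.378 to 0.701). Celf4 had a ratio of 1.07 (0.565 to 1.84) on 13 UMIs, Celf1 one of 1.14 (0.847 to 1.51) and Srrm2 one of 0.696 (0.580 to 0.829). The neuron-like and microglia-like contrasts share the cycling cells. Markers of other cells in the microglia-like class were low but present: the 8 granule progenitor markers summed to 314.5 CPM, against 4083 CPM in cycling cells, and the 16 G2 and M markers to 2044 CPM. The mitochondrial share was 9.67% and Malat1 stood at 15645 CPM. The part of these values in the ratios was not tested.

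At P24-30 the microglia-like tag G8 held 35 cells and 85317 UMIs, and 27 of the 42 genes passed the minimum there. Of these, 22 were lower than in tags G1 and G2 (33.2% of 1423 kept genes) and 0 were higher (33.7%), with a median log2 ratio of -1.40. The minimum uses the mean of both groups, so a gene can pass through its level in G1 and G2. Hnrnpr did so with 4 UMIs in G8, while a gene raised only in G8 can fail. The counts of lower and higher genes depend on this. Celf1 was highest at 1.13. Mbnl1 was below the minimum, with 11 UMIs and 128.9 CPM in G8 against 45.93 and 46.41 CPM in G1 and G2.

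**Figure D4:**
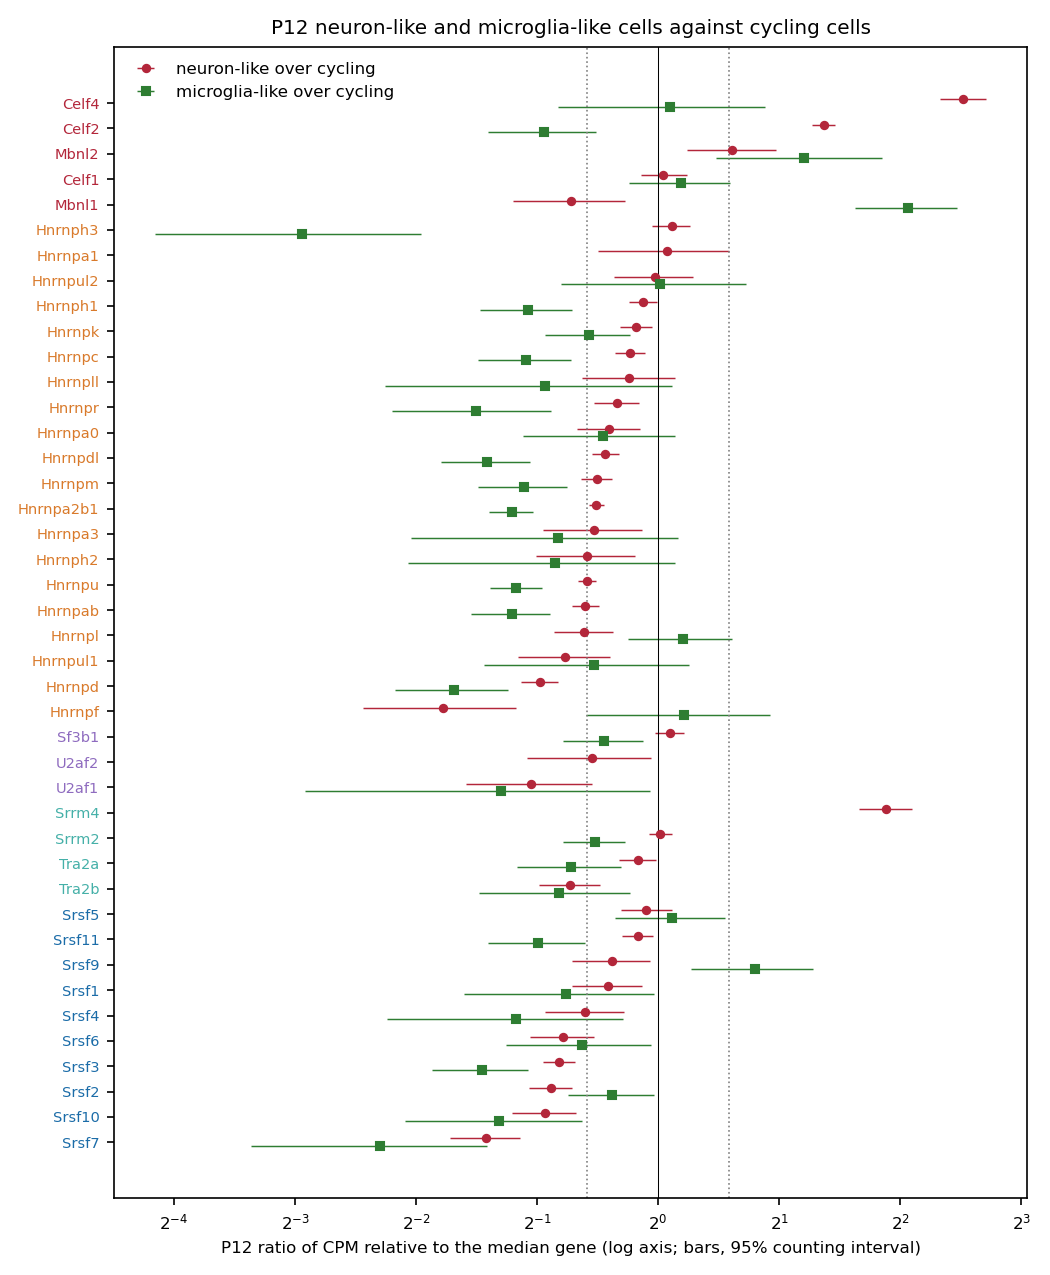
Ratios of the splicing factor genes in P12 neuron-like (red circles) and microglia-like cells (green squares) over cycling cells, relative to the median gene, on a log axis. Bars are 95% counting intervals, dotted lines 1.5-fold, and the colours of the gene names give their families. Celf4, Srrm4 and Celf2 lie right of 1.5-fold in neuron-like cells and Mbnl1 in microglia-like cells, and most other genes lie left of 1 in both.

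Few of the genes were called between groups of cycling cells that differ in phase markers. At P24-30, tags G1 and G16 (the G2 and M side) were set against tags G2 and G3 (the S side). There, 2 of 42 genes were higher (9.45% of kept genes) and 0 lower (10.1%) on the G2 and M side. They were Mbnl2 at 1.60 (1.27 to 2.03) and Hnrnph2 at 1.51 (1.31 to 1.74). At P12, 1 was higher (10.5%) and 1 lower (11.9%) in the G2 and M clusters than in the S clusters. They were Hnrnph2, an X-linked relative of Hnrnph1, at 1.62 (1.38 to 1.90) and U2af1 at 0.629 (0.529 to 0.747). The median log2 ratio was 0.01 at P24-30 and 0.03 at P12. The S sides are mixed. In tag G2 the G2 and M markers summed to 4181 CPM, above the 2799 CPM of its G1/S and S phase markers. In tags G1 and G16 the G2 and M markers summed to 9873 and 13176 CPM. P12 cluster 2, on the S side, held 7976 CPM of G2 and M markers and 3484 CPM of G1/S and S phase markers. These ratios therefore compare groups that overlap in phase. Hnrnph2, Hnrnph1 and U2af1 were named for these values after they were seen.

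Other splicing genes were compared through lists. Of the core snRNP and spliceosome list, which holds the proteins that build the splicing machinery, 23 of 40 kept genes were lower (20% of all kept genes) and 0 higher (23.8%) in tags G11 to G13, with a median log2 ratio of -0.69. At P12, 21 of 41 were lower (22.9%) and 0 higher (23.2%) in neuron-like cells, with a median of -0.63. In microglia-like cells 27 of 34 were lower (31.9%) and 0 higher (33.3%), with a median of -0.86. Lsm2, part of the ring on U6 snRNA, had a ratio of 0.315 (0.251 to 0.391) at P24-30 and 0.368 (0.276 to 0.481) at P12. Lsm5 had 0.279 (0.217 to 0.353) in the tags and Lsm6 had 0.344 (0.268 to 0.434) at P12, and Prpf6 was highest or next to highest at 1.05 (0.891 to 1.22) and 1.16 (0.967 to 1.38).

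Of the kinases and partners of SR proteins, 2 of 17 were lower (20% of all kept genes) and 1 higher (23.8%) at P24-30, with a median log2 ratio of 0.05. At P12, 0 of 17 were lower (22.9%) and 1 higher (23.2%) in neuron-like cells, with a median of 0.02. The higher gene was Clk1, which phosphorylates SR proteins, at 1.56 (1.34 to 1.80) and 1.57 (1.33 to 1.83). Rnps1 and Srrm1 were lowest in the tags, at 0.551 (0.469 to 0.646) and 0.627 (0.576 to 0.681). In microglia-like cells 5 of 15 were lower (31.9%) and 1 was higher (33.3%), Son, a speckle scaffold, at 1.63 (1.42 to 1.87).

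Of the list of neuronal and other splicing regulators, 9 of 33 were higher (23.8% of all kept genes) and 8 lower (20%) in tags G11 to G13, and 13 of 33 higher (23.2%) and 7 lower (22.9%) in P12 neuron-like cells. The counts in the tags lie near these shares. Nova2 and Celf5, neuronal RNA-binding proteins, were highest in the tags at 3.25 (2.40 to 4.42) and 3.20 (2.51 to 4.08). Celf3 and Celf5 were highest at P12 at 8.25 (5.56 to 12.2) and 5.11 (3.69 to 7.04). Taf15 and Raly were lowest in the tags at 0.502 (0.402 to 0.622) and 0.509 (0.364 to 0.699). Ptbp1, the repressor of neuronal exons, and Elavl1 were lowest at P12, at 0.229 (0.0832 to 0.507) on 6 UMIs and at 0.436 (0.299 to 0.615). The ratio of Ptbp1 in the tags, 0.599 (0.403 to 0.872), is given because of its P12 value. In microglia-like cells 2 of 23 were higher (33.3%) and 13 lower (31.9%). The higher ones were Ptbp3, at 5.37 (4.05 to 7.01), and Qk, the KH-domain splicing regulator, at 3.36 (2.67 to 4.16).

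Between the libraries, age, library and the counting behind each file cannot be told apart. In cycling cells, 8 of 42 genes were higher at P24-30 (18.1% of 10772 kept genes) and 1 was lower (13%), 9 in either direction (31.1%), with a median log2 ratio of 0.03. The median gene had a log2 ratio of -0.34, and without division by it 6 genes were higher and 14 lower, with a median of -0.31. Celf4 stood at 140.3 CPM at P24-30 and 84.05 CPM at P12, a ratio of 2.12 (1.88 to 2.39). Neither level was told apart from background in the thinned shares. Srsf2 stood at 770.6 and 610.7 CPM, a ratio of 1.60 (1.53 to 1.68). Tra2a, the relative of Tra2b, stood at 153.1 and 533.7 CPM and was the lower gene at 0.364 (0.334 to 0.397). Next lowest, but not called, were Mbnl1 at 0.671 (0.566 to 0.793), Hnrnpu at 0.690 (0.670 to 0.710), Srrm2 at 0.722 (0.692 to 0.753) and Hnrnpdl at 0.748 (0.716 to 0.782). Between tags G11 to G13 and the P12 neuron-like cells, 7 genes were higher (22.9% of 8033 kept genes) and 6 lower (17.1%), 13 in either direction (40%), and without division by the median gene 6 were higher and 18 lower. Tra2a was lowest at 0.347 (0.293 to 0.411) and Celf2 next at 0.518 (0.477 to 0.563).

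The largest differences between the libraries fell in genes that share a near-identical stretch with another gene. In GENCODE vM21 transcripts, 13 of the 42 genes share at least 100 bases at 95% identity or more with another gene in their last 1000 bases, where 3′ reads fall. Each such gene is called a copy here, although the match can be short. For Hnrnph1 it was 171 bases shared with Setd1b. Of the 13, 6 were higher at P24-30 in cycling cells (18.1% of kept genes), with a median log2 ratio of 0.51. In the comparison of tags G11 to G13 with P12 neuron-like cells 7 were higher (22.9%), with a median of 0.75. Of the 29 without a copy, 2 were higher (18.1%) and 1 lower (13%) in the first comparison, with a median of -0.20. In the second, 0 were higher (22.9%) and 6 lower (17.1%), with a median of -0.42. Hnrnpa1, with 11 copies, stood at 527.5 CPM at P24-30 and 39.20 CPM at P12, a ratio of 17.1 (15 to 19.5). Hnrnpa3, with 35 copies, stood at 761.3 and 97.76 CPM, a ratio of 9.88 (9.08 to 10.8). Of these 35 copies, 30 were listed as genes of their own at P12 and 5 at P24-30. Hnrnpf, with 5 copies, had a ratio of 3.36 (3.04 to 3.71), U2af2, with 2, one of 2.35 (2.05 to 2.68), U2af1, with 3, one of 2.03 (1.80 to 2.29), and Tra2b, with 4, one of 1.63 (1.52 to 1.75). The sources used here do not say how reads that match several genes were counted, so these 13 values between libraries are uncertain, and the part of the copies in them was not tested. Of the 42 genes, 22 overlap a second gene in the annotation, 18 of them on the opposite strand, and their UMIs can hold reads of that gene.

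**Figure D5:**
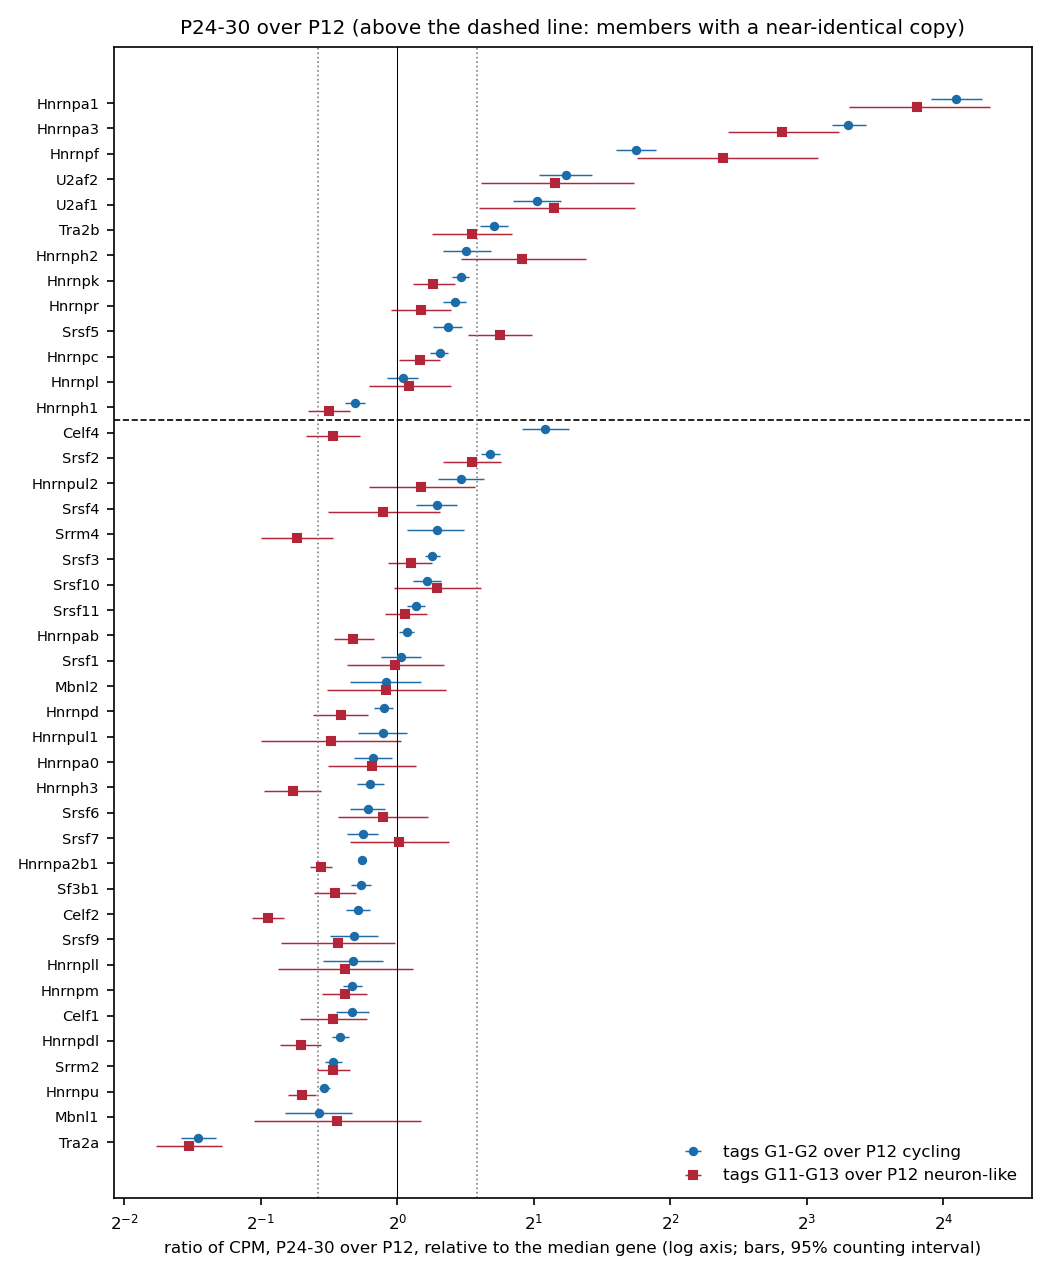
Ratio of P24-30 over P12 for the 42 splicing factor genes, relative to the median gene, on a log axis, for cycling cells (blue circles) and for tags G11 to G13 over P12 neuron-like cells (red squares). Bars are 95% counting intervals and dotted lines 1.5-fold. Above the dashed line stand the 13 genes with a near-identical copy (a shared stretch, as defined in the text), which reach 17.1 (Hnrnpa1). Below it stand the 29 without, where Celf4 is highest at 2.12 in cycling cells, with neither level told apart from background.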

How the data were processed

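Drop-seq libraries of P12 and P24-30 tumour cells were analysed, 1 per age. The submitters' processing notes name CASAVA and mm10. The sources used here do not name an aligner, counter or annotation, nor say how strand and molecular barcodes were treated or how barcodes were chosen. For P12 the authors deposited raw counts (6000 barcodes, 12265399 counts), taken as UMIs. For P24-30 the authors deposited values on a natural log scale, ln(1 + 10000 × share of the cell's UMIs), for 4991 cells. Of its 6195642 values above 0, 100% gave whole UMIs within 0.001 of a whole number, and 12256463 UMIs of listed genes were recovered. The cells' totals, inferred from the scale of 10000 and with genes not listed included, came to 12284458 UMIs.

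Filters removed 9 P12 and 146 P24-30 cells for few UMIs, and 268 and 49 for mitochondrial UMIs. P12 cells were clustered without the 42 genes (scanpy 1.11.5, 2000 variable genes, 30 components, 15 neighbours, Leiden resolution 1, seed 1). A cluster took the name of the list with the most raised markers (log2 fold of 1, pseudocount 20 CPM), with at least 3 raised and 1 among its top 10 genes; this rule was set after the clusters had been seen. The erythroid list was not used for names, since 559 of 764 Hbb-bs UMIs lay in 2 cells. UMIs were summed per group and scaled to CPM. Genes were kept where their mean CPM corresponds to 10 UMIs in the group with fewer UMIs, and a group at 0 UMIs was set to 3 counts. Intervals are exact (Clopper-Pearson, conditional on the summed UMIs). Their coverage was checked only on simulated counts with counting error alone and without division by the median gene. That check cannot show their coverage where cells differ by more than counting error. Cells of a group share 1 library and are not replicates. Copies were found with blastn 2.17.0.

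The genes and lists were chosen with earlier results of these data known. The rule for naming genes took the 5 highest and 5 lowest in each comparison (3 and 3 in microglia-like cells) and a fixed set of 13 genes (Srsf2, Srsf3, Tra2b, Hnrnpa1, Hnrnpa2b1, Hnrnpab, Mbnl1, Mbnl2, Celf1, Celf2, Celf4, Srrm2 and Srrm4). It also took the 2 highest and 2 lowest of each list. Not all of these are named in the text. Between tags G11 to G13 and P12 neuron-like cells only Tra2a and Celf2 are, and some list genes are left out. Alternatives tried were the fold, the minimum, the filters, the median gene, the clustering and the choice of tags.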

Additional observations from a re-analysis of the deposited data

Results flagged for a closer look

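Srsf12, an SR protein gene that was listed at P12 only, had 5 UMIs over all P12 barcodes. It stands outside the 42 genes compared and was picked out because its signal lies in data that no comparison used. With so few UMIs no level by cell class was given.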

How the results depend on the processing

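No paired analysis was possible because each age has 1 library and the labels give no replicate numbers. Of 119 medians and counts of called genes recomputed under other settings, 100 were taken as staying and 19 as moved. Counts stayed when within 1.5 times the main count. Medians stayed when inside an interval set by the spread of the splicing factor genes, not by counting error. This tolerance is wide. With only genes without a copy, the median went from 0.0346 to -0.198 between the libraries' cycling cells. It went from -0.104 to -0.416 in the neuron-like comparison of libraries, and both were taken as staying. A fold of 2 left 10 called genes in the tags, 6 in P12 neuron-like cells, 17 in microglia-like cells and 6 between tags G11 to G13 and P12 neuron-like cells. Without division by the median gene, the median log2 ratio was -0.376 in the tags, -1.31 in microglia-like cells and -0.309 between the libraries' cycling cells, where 20 genes were called, against 24 in the neuron-like comparison of libraries. Without a minimum beyond 1 UMI the medians were -0.929 in the tags, -1.12 in P12 neuron-like and -3.22 in microglia-like cells, with 41 genes called in each of the last 2; 33 genes were then lower and 0 higher in both neuron-like contrasts, against 9 lower without division by the median gene. There, genes with 0 UMIs in the smaller group sit at the floor and shift the median gene by construction. Its log2 ratio was then 0.55 in the tags, 0.73 in P12 neuron-like cells and 1.89 in microglia-like cells. This shift turned Mbnl2 to 0.945 in neuron-like cells, and Mbnl1 to 0.803, Mbnl2 to 0.442 and Srsf9 to 0.333 in microglia-like cells. Genes without a copy gave 3 calls between cycling cells and 6 in the neuron-like comparison of libraries. Of 994 values of single genes, 840 stayed, 150 moved and 4 turned, the 4 just named. Settings chosen after seeing the data were those without tag G13, without cells holding choroid plexus markers, with 4 cycling tags and without P12 cluster 2, and both settings for the genes shared by the neuron-like contrasts. Depth limits the microglia-like values most, with 203512 UMIs at P12 and 85317 at P24-30.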
